A study of Mus musculus with 40 samples.

Results

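The 10 genes described here encode the enzymes that make bile acids in the liver, the receptors that feed bile acid levels back to that synthesis, and the carriers that move bile acids into and out of hepatocytes. They are Cyp7a1, Cyp8b1, Cyp27a1, Cyp7b1, Nr0b2, Nr1h4, Fgfr4, Klb, Abcb11 and Slc10a1, and were taken by gene symbol from both deposited tables of counts. All 10 were found among the 40239 genes that both tables list outside the ribosomal RNA genes, and all 10 were among the 12942 genes that reached 1 CPM (the reads of a gene scaled to the size of its library) in 5 mice or more, which were tested.

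Liver RNA was sequenced from 40 male mice aged 5 months, with 5 mice in each of 8 groups. WT mice were C57BL6/J, and KO mice carried a PPARγ-loxP allele together with the Alb-Cre transgene. Its albumin promoter drives the recombinase in hepatocytes, and liver cells without the recombinase keep the gene. From the age of 2 months, mice of each genotype were fed for 3 months on control diet (control), control diet with 0.01% pioglitazone (Pio), a high-fat diet with 60% of its calories from fat (HFD), or that diet with pioglitazone (HFD-Pio). Pioglitazone is a drug of the thiazolidinedione class and an agonist of PPARγ. WT mice are described as purchased animals, not as littermates of the KO mice, and each genotype has its own table of counts. Genotype, source of the mice and table can thus not be told apart. Effects of drug and diet were therefore estimated within a genotype, and WT and KO levels are given side by side without a test. Differences of these effects between genotypes, KO minus WT, were tested, and the same limit holds for them. Bulk liver RNA also cannot tell fewer cells of a type from less RNA per cell.

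Total counts ran from 15788242 to 49857017 in WT and from 21542958 to 28334251 in KO mice, and no member had under 202 reads in any mouse. Pparg, the targeted gene, lay between 5.79 and 14.2 CPM in the WT mice and between 3.01 and 9.90 CPM in the KO mice, ranges that overlap. The counts cover the whole gene, including exons outside a floxed stretch and cells without Cre. Hepatocyte markers were abundant, with a summed level of 8 genes of 75479 CPM or more in 39 mice. In the remaining animal, KO Pio mouse 13, that sum was 32927 CPM, and the median correlation of its log2 CPM with the other KO mice was 0.783, against 0.946 to 0.988 for the other 19. Effects in the KO Pio group are therefore given with and without mouse 13. WT control mouse 832 had the lowest such correlation among WT mice (0.928), and KO HFD mouse 9 the next lowest among KO mice (0.946).

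Bile acids are made from cholesterol in hepatocytes. In the classic pathway Cyp7a1, cholesterol 7α-hydroxylase, takes the first and rate-limiting step, and Cyp8b1, sterol 12α-hydroxylase, sets how much cholic acid is formed. In the alternative pathway Cyp27a1 hydroxylates the sterol side chain and Cyp7b1 the 7α position of oxysterols. Bile acids that return to the liver activate FXR, the product of Nr1h4. FXR induces Nr0b2, whose product SHP is a repressor without a DNA-binding domain that acts on Cyp7a1 and Cyp8b1 through LRH-1 and other nuclear receptors. FGF15 from the intestine represses Cyp7a1 through Fgfr4 and its coreceptor β-Klotho, the product of Klb. Slc10a1 encodes NTCP, which takes up bile acids from blood, and Abcb11 encodes BSEP, the export pump into bile. Cyp7a1 transcription also follows a daily rhythm and feeding.

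Promoters of 3 members are shown because the feedback receptors are known to act on them. FXR with RXR binds an inverted repeat of AGGTCA separated by 1 base, as in Abcb11, and LRH-1 binds sites with a CAAGG core, as in Nr0b2 and Cyp8b1. The sequences run 5′ to 3′ from 250 bases before to 50 bases after the start of the gene and are those of RefSeq on GRCm38.p6 (chr2:69342567-69342866, minus strand for Abcb11, chr4:133553126-133553425, plus strand for Nr0b2 and chr9:121916256-121916555, minus strand for Cyp8b1). Capitals mark CAAGG on either strand and inverted repeats, AGGTCANTGACCT, with up to 2 mismatches.
Abcb11: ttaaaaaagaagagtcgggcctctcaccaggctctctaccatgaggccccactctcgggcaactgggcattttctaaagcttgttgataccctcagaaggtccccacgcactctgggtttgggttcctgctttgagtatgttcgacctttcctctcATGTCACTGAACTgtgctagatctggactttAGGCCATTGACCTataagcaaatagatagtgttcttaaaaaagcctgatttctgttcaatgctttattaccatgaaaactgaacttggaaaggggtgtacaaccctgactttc
Nr0b2: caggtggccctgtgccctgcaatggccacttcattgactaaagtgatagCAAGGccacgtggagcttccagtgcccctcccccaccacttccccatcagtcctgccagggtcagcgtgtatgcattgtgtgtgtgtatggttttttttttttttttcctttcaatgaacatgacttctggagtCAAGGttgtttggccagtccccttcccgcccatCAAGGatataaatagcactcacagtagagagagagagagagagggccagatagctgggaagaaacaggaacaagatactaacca
Cyp8b1: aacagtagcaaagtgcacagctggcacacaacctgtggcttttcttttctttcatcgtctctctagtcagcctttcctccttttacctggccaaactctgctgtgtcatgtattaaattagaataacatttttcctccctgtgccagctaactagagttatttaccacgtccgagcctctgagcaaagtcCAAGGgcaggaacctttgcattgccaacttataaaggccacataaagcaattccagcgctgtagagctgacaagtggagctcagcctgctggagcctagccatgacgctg
RefSeq promoters were matched for 8 of the 10 members, all but Cyp7a1 and Cyp7b1. Abcb11 was the only member of those 8 with an inverted repeat of this kind, found at -63 to -51 and at -94 to -82 from the start, a pattern that 1.162% of 27025 RefSeq promoters of the same length hold. The first of these contains TGACCT, the reverse complement of AGGTCA. Nr0b2 holds CAAGG at -201, -67 and -34 and Cyp8b1 at -60, and CAAGG on either strand is present in 51.99% of all promoters. The RefSeq window of Nr1h4 (chr10:89506609-89506908, minus strand) lies inside the locus as annotated for the counts, not at its start. A match is a run of letters, not a measured binding site.

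Scaled to exon length and depth (RPKM), which allows levels to be set beside each other between genes, the members spanned a wide range in WT control livers. Slc10a1 was highest at 316 ± 137 RPKM (mean ± SD, n = 5, as for all groups unless stated), followed by Cyp27a1 at 232 ± 82.7, Cyp8b1 at 181 ± 81.6 and Abcb11 at 123 ± 22.4. Nr0b2 stood at 54.2 ± 21.3 and Cyp7b1 at 49.4 ± 25.1. Their ranges of mean ± SD overlap, as do those of Slc10a1, Cyp27a1 and Cyp8b1. The genes were read in the same 5 mice, and differences between genes within a mouse were not tested. Nr1h4 stood at 27.5 ± 6.25, Fgfr4 at 18.9 ± 2.85 and Klb at 7.88 ± 2.19 RPKM, and Cyp7a1 was the lowest of the 10 at 2.58 ± 1.11 RPKM. In KO control livers Cyp7a1 stood at 31.8 ± 21.7 RPKM, between Nr0b2 at 40.5 ± 11.7 and Fgfr4 at 14.1 ± 0.747. All further levels are in CPM, normalised between libraries, and compare 1 gene across groups.

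**Figure D1:**
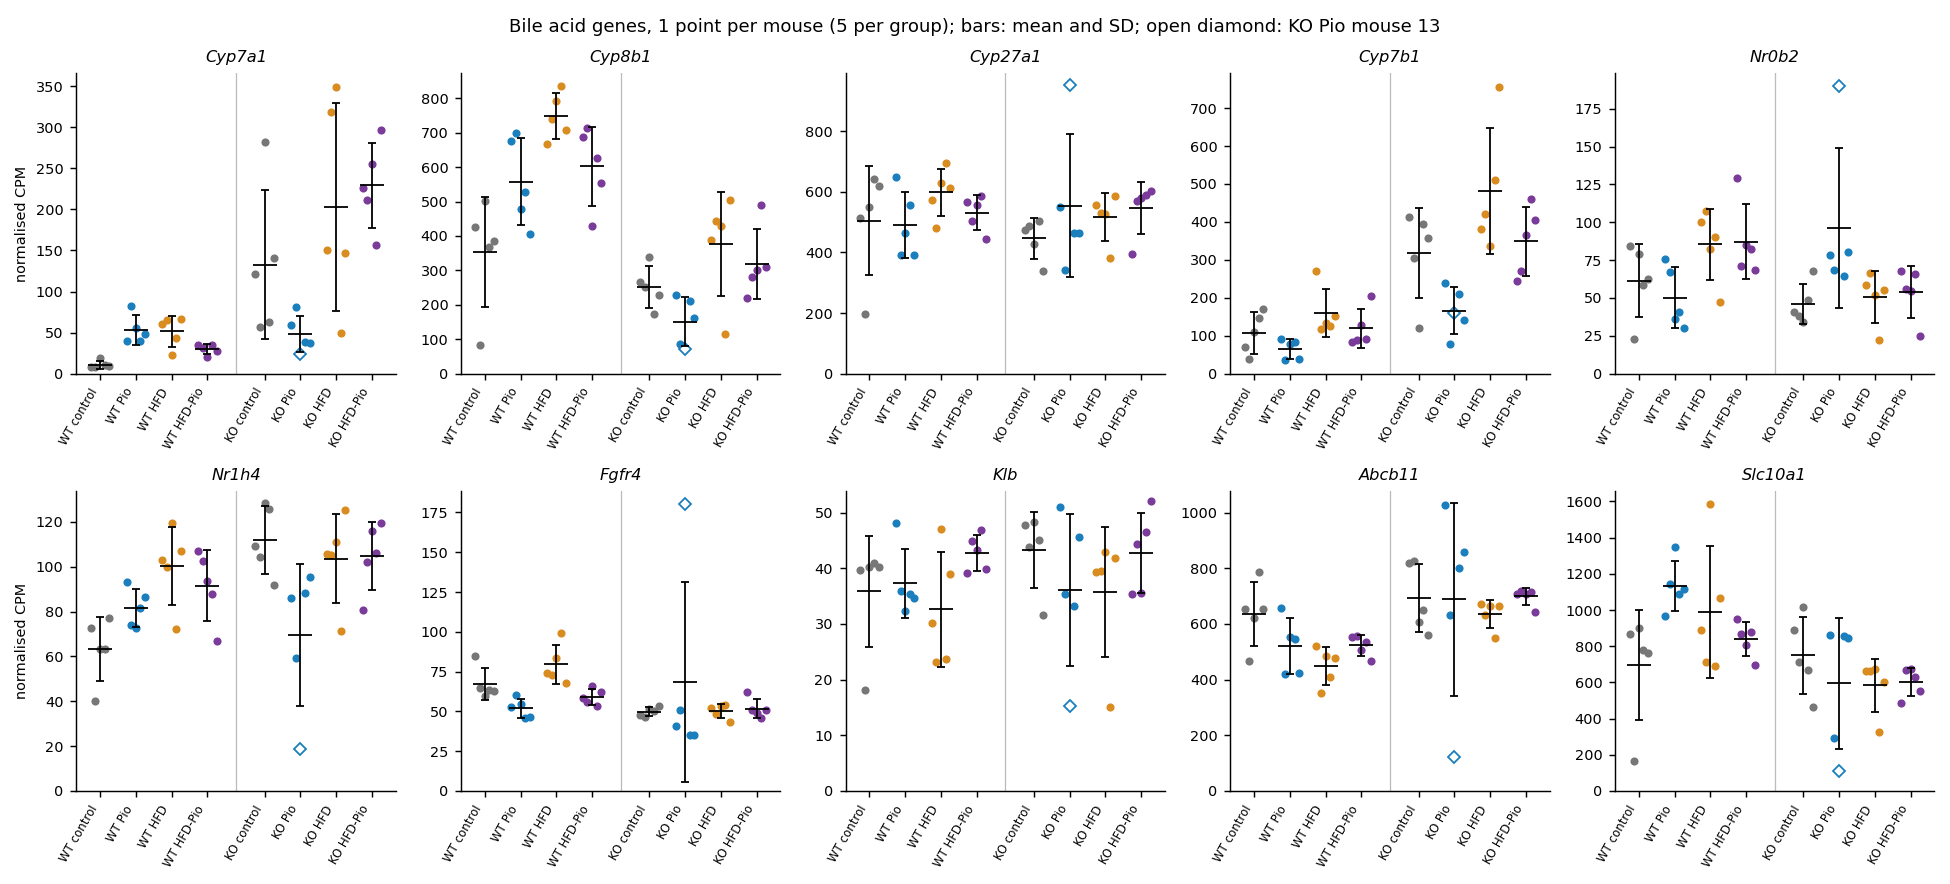
Normalised read counts (CPM, vertical axes, linear, a scale for each gene) of the 10 genes in each of the 40 mice. Points are mice, horizontal bars group means and whiskers SD (5 mice a group), WT groups stand left and KO groups right of the grey line, and the open diamond is KO Pio mouse 13. Cyp7a1 was lowest in the WT control mice (7.67 to 18.8 CPM), and mouse 13 lies apart from its group for Abcb11 (124 CPM) and Fgfr4 (180.0 CPM).

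A member was called changed when its adjusted p was at most 0.05 in the quasi-likelihood test of edgeR, adjusted by Benjamini-Hochberg over all genes tested. On the control diet in WT mice, Pio changed 1 of the 10 members, Cyp7a1, against a background of 3.91% of all genes tested. On HFD in WT mice, Pio changed 0 members (0 at an unadjusted p of at most 0.05, 0 with DESeq2 and 1 with limma) against 1.08% of all genes. HFD without Pio changed 1 member in WT mice, again Cyp7a1, against 1.31%, and HFD with Pio changed 0 (3 at an unadjusted p of at most 0.05, 0 with DESeq2 and 1 with limma) against 1.22%. With so few members, 1 call says little of the group, and the results are therefore given gene by gene.

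In KO mice Pio on the control diet changed 2 members, Cyp7a1 and Nr0b2, against 9.01% of all genes. On HFD it changed 0 (0 at an unadjusted p of at most 0.05, 0 with DESeq2 and 0 with limma) against 0.0155%. HFD without Pio changed 0 members (0 at an unadjusted p of at most 0.05, 0 with DESeq2 and 2 with limma) against 0.185%, and HFD with Pio changed 1, Cyp7a1, against 4.96%. For differences between effects, the effect of Pio on HFD minus that on the control diet was called for Cyp7a1 alone in WT mice (0.0773% of all genes) and for 0 members in KO mice (3 at an unadjusted p of at most 0.05, 0 with DESeq2 and 0 with limma), against 0%. KO minus WT, the Pio effect on the control diet differed for Cyp7a1 and Nr1h4 (7.87% of all genes) and the Pio effect on HFD for 0 members (0 at an unadjusted p of at most 0.05, 0 with DESeq2 and 0 with limma), against 0.0927%. The HFD effect without Pio differed between genotypes for 0 members (2 at an unadjusted p of at most 0.05, 0 with DESeq2 and 1 with limma), against 0.0618%, and the HFD effect with Pio for 1, Cyp7a1, against 0.0155%.

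Without KO Pio mouse 13, 12895 genes passed the filter, and calls moved in WT mice too. Members called were then 2 for Pio on the control diet in WT mice (Cyp7a1 and Fgfr4, background 15.6%), 1 for Pio on HFD (Fgfr4, 11.6%), 4 for HFD without Pio (Cyp7a1, Cyp8b1, Nr1h4 and Abcb11, 6.55%) and 0 for HFD with Pio (3 at an unadjusted p of at most 0.05, 8.68%). In KO mice they were 0 for Pio on the control diet (5 at an unadjusted p of at most 0.05, background 0.512%), 0 for Pio on HFD (0 at an unadjusted p of at most 0.05, 0%), 0 for HFD without Pio (0 at an unadjusted p of at most 0.05, 0.388%) and 1 for HFD with Pio (Cyp7a1, 0.0931%). For the differences between effects, Cyp7a1 alone was called for Pio on HFD minus control diet in WT mice (5.25%), Cyp7a1 and Nr1h4 for Pio on the control diet between genotypes (5.78%), and 0 members for the other 4, whose backgrounds were 0% (Pio by diet in KO), 0.163% (Pio on HFD, KO minus WT), 1.05% (HFD without Pio, KO minus WT) and 0.00775% (HFD with Pio, KO minus WT), with 1, 1, 4 and 2 members at an unadjusted p of at most 0.05.

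**Figure D2:**
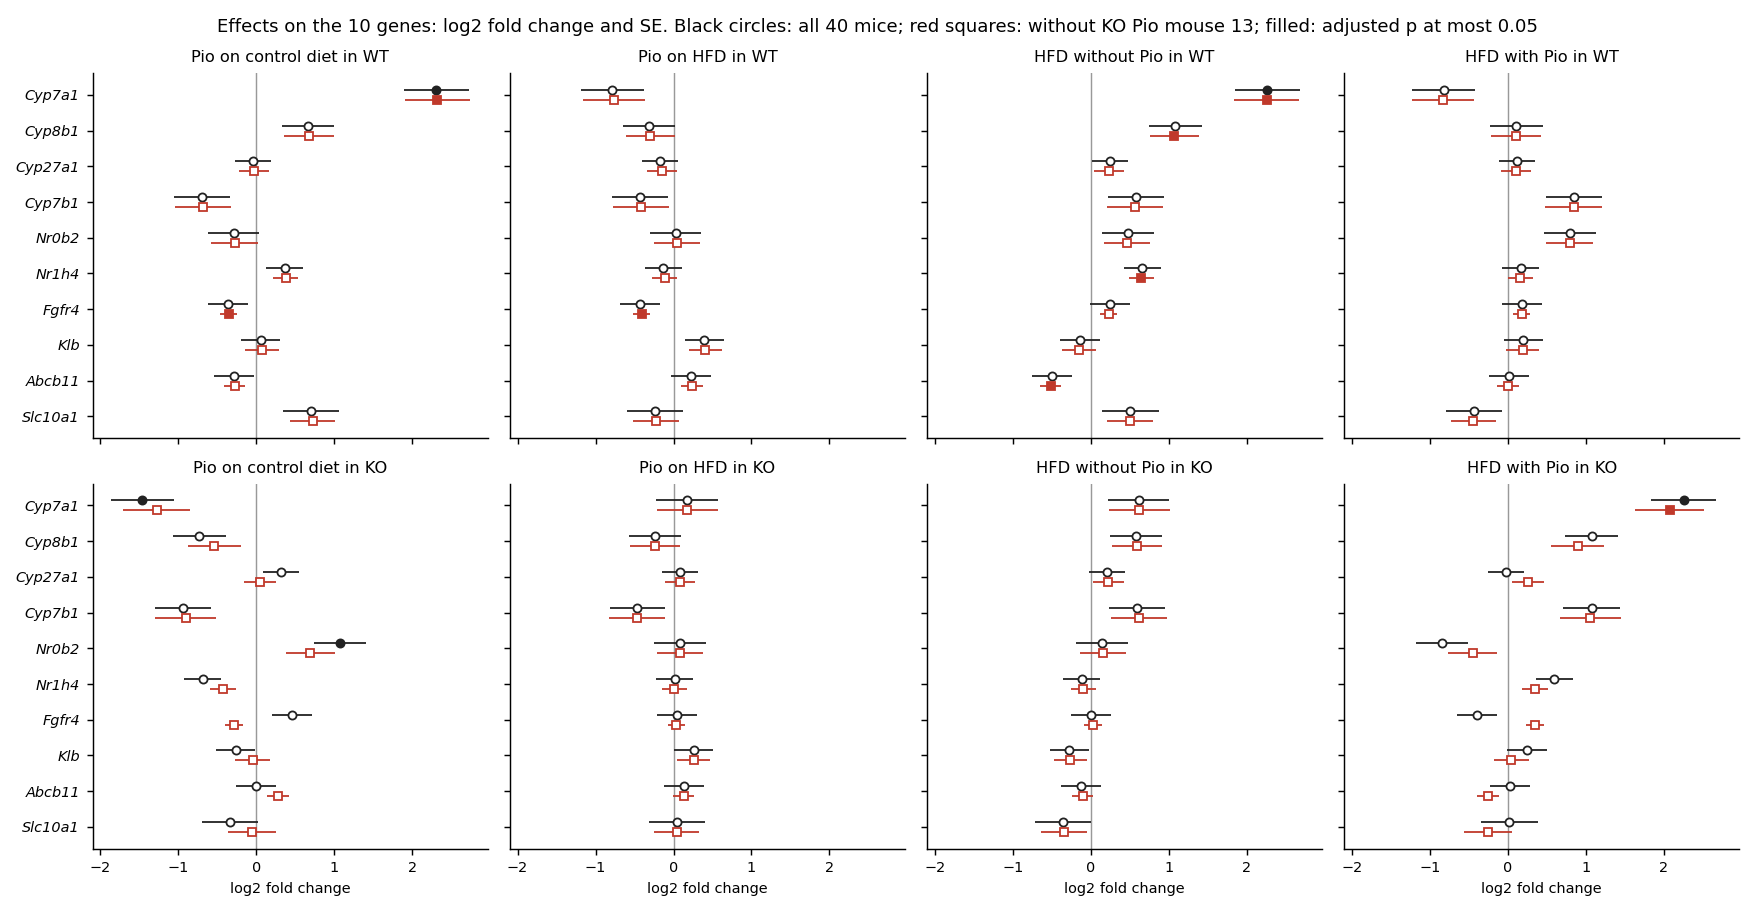
Effects of Pio and HFD on the 10 genes as log2 fold changes (horizontal axes) with their SE, a panel for each comparison, WT above and KO below. Black circles come from all 40 mice and red squares from the fit without KO Pio mouse 13, and filled symbols have an adjusted p of at most 0.05. Cyp7a1 reached 2.31 with Pio on the control diet in WT mice and -1.47 in KO mice, and Fgfr4 changed sign in the KO Pio group when mouse 13 was left out.

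Cyp7a1 (ENSMUSG00000028240, chr4:6265612-6275633, minus strand, GRCm38), the rate-limiting enzyme, rose in WT livers with Pio and with HFD given alone. With both, its mean lay between those of the control and the single treatments, and HFD-Pio was not tested against control. WT control mice had 7.67, 7.80, 9.16, 10.5 and 18.8 CPM and WT Pio mice 39.4, 40.1, 47.9, 55.7 and 82.5 CPM, so that every Pio mouse lay above every control. Mean levels were 10.8 ± 4.62 and 53.1 ± 17.7 CPM, a 4.95-fold rise (log2 fold change 2.31, SE 0.42, adjusted p = 0.000975, exact two-sided permutation p = 0.00794, the smallest that 5 mice against 5 can give). WT HFD mice had 22.6, 43.2, 61.1, 65.0 and 66.3 CPM (mean 51.6 ± 18.7), also all above the controls, a 4.81-fold rise (log2 fold change 2.27, SE 0.42, adjusted p = 0.00249, exact permutation p = 0.00794). Both rises are measured against the same 5 control mice. Each kept its call in all 40 fits that left out 1 mouse.

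With Pio added to HFD, WT Cyp7a1 stood at 20.8, 27.6, 31.6, 35.0 and 35.0 CPM (mean 30.0 ± 5.97). These 5 values overlap with those of WT HFD mice, whose lowest was mouse 828 at 22.6 CPM (log2 fold change -0.78, SE 0.40, adjusted p = 0.339 for Pio on HFD, exact permutation p = 0.0635). All 5 lay below every WT Pio mouse, a difference that did not pass adjustment (log2 fold change -0.82, SE 0.40, adjusted p = 0.344 for HFD with Pio, exact permutation p = 0.00794). The effect of Pio on HFD minus its effect on the control diet was -3.09 on the log2 scale (SE 0.58, adjusted p = 0.031). That call was lost, with adjusted p between 0.0515 and 0.102, in 12 of the 40 fits without 1 mouse: without WT HFD mouse 826 or 827, WT control mouse 832, 834 or 835, any of the 5 WT HFD-Pio mice, or WT Pio mouse 842 or 845. The difference itself stayed negative in all 40. DESeq2 (-3.09, adjusted p = 0.000284) and limma (-3.06, adjusted p = 0.00201) also called it. Without KO Pio mouse 13 edgeR called it too (-3.09, adjusted p = 0.0041).

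In KO livers Cyp7a1 fell with Pio on the control diet, the opposite direction, and its coefficient of variation within groups reached 68.4%, against 42.9% in WT mice. KO control mice had 57.2, 63.2, 121, 140.5 and 282 CPM (mean 133 ± 90.7) and KO Pio mice 24.1, 37.9, 38.8, 58.7 and 80.6 CPM (mean 48.0 ± 22.0), with mouse 13 at the lowest value. The groups overlap, and 3 of 5 Pio mice lay below every control (log2 fold change -1.47, SE 0.40, adjusted p = 0.0264, exact permutation p = 0.0397). The call was lost without KO Pio mouse 13 (log2 fold change -1.28, SE 0.43, adjusted p = 0.182, exact permutation p = 0.0714 over 4 mice against 5), without KO control mouse 1 (log2 fold change -1.50, adjusted p = 0.0554) and without KO control mouse 3, the highest control (-0.98, adjusted p = 0.117). With KO mice fitted alone the adjusted p was 0.155. Over all 40 mice the fall was also called by DESeq2 (-1.46, adjusted p = 0.00753) and limma (-1.16, adjusted p = 0.0259). The Pio effect on the control diet differed between genotypes by -3.77 on the log2 scale (SE 0.58, adjusted p = 0.000521), KO minus WT, and without mouse 13 by -3.60 on the log2 scale (SE 0.60, adjusted p = 0.000489). This difference kept its call in all 40 fits without 1 mouse.

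KO HFD mice had 49.9, 147, 151, 318 and 349 CPM of Cyp7a1 (mean 203 ± 126), which overlaps with the controls (log2 fold change 0.61, SE 0.40, adjusted p = 1, against 1.16, adjusted p = 0.0281 with limma). KO HFD-Pio mice had 157, 211, 226, 256 and 297 CPM (mean 229 ± 51.9), all above every KO Pio mouse. The 4.78-fold difference between those groups was called (log2 fold change 2.26, SE 0.41, adjusted p = 0.0117, exact permutation p = 0.00794) and remained so without mouse 13 (log2 fold change 2.08, SE 0.44, adjusted p = 0.0422). Without KO HFD-Pio mouse 20 it was not called (2.15, adjusted p = 0.0524), nor with KO mice fitted alone (adjusted p = 0.155). The effect of Pio on HFD minus that on the control diet was 1.64 on the log2 scale (SE 0.56, adjusted p = 0.339) in KO mice, and 1.45 on the log2 scale (SE 0.57, adjusted p = 0.926) without mouse 13.

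Between genotypes, the HFD effect on Cyp7a1 with Pio differed by 3.08 on the log2 scale (SE 0.57, adjusted p = 0.0295), KO minus WT. This call was lost in 11 of 40 fits without 1 mouse, among them that without KO Pio mouse 13 (log2 fold change 2.91, SE 0.59, adjusted p = 0.0517), with adjusted p between 0.0517 and 0.0920. The other 10 were the fits without each of the 5 WT HFD-Pio mice, WT Pio mouse 842 or 843, KO Pio mouse 15 or KO HFD-Pio mouse 16 or 20. Over all 40 mice DESeq2 (3.08, adjusted p = 0.000156) and limma (2.98, adjusted p = 0.000843) also called this difference. Without Pio the HFD effect differed by -1.65 on the log2 scale (SE 0.57, adjusted p = 0.275). The comparisons of HFD with Pio share the Pio mice with those of Pio on the control diet.

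**Figure D3:**
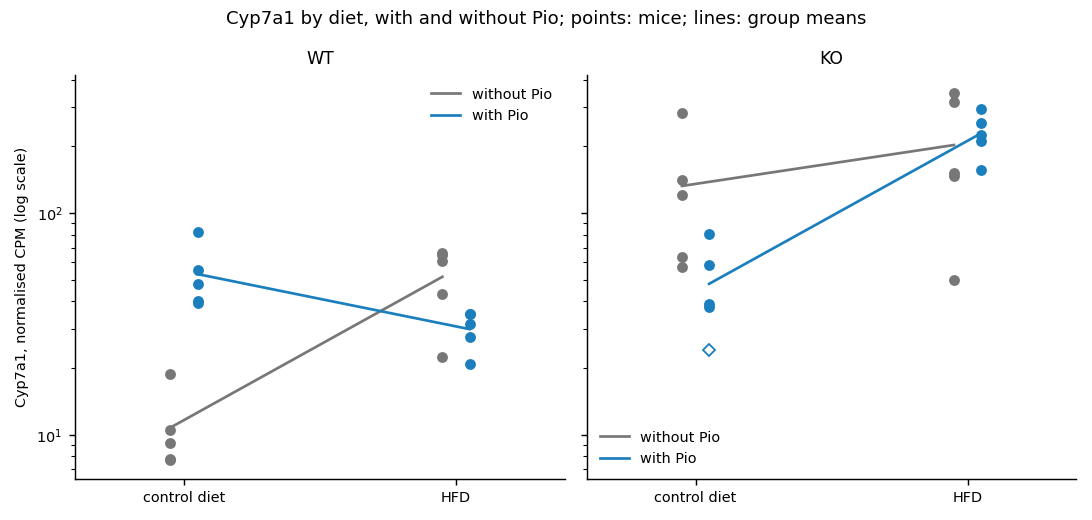
Cyp7a1 in normalised read counts (CPM, logarithmic vertical axis) by diet in WT (left) and KO mice (right). Points are mice, grey without and blue with Pio, lines join the group means (5 mice each), and the open diamond is KO Pio mouse 13. In WT mice the lines cross, from 10.8 and 53.1 CPM on the control diet to 51.6 and 30.0 CPM on HFD, and in KO mice they start at 133 and 48.0 CPM and reach 203 and 229 CPM.

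Levels of marker genes were read in the same groups. Of all genes tested in WT mice, edgeR called 3.91% for Pio on the control diet and 1.08% for Pio on HFD. HFD without Pio called 1.31% and HFD with Pio 1.22%. In KO mice these shares were 9.01%, 0.0155%, 0.185% and 4.96%. The Pio effect differed, KO minus WT, for 7.87% on the control diet and 0.0927% on HFD. Of 17 genes of the circadian clock, 8 were called for Pio on the control diet in WT mice, 4 higher and 4 lower, and their summed level was 447 to 813 CPM in WT control and 849 to 1280.3 CPM in WT Pio mice. The called genes were Per3, Nr1d2, Hlf and Ciart, which were higher, and Arntl, Npas2, Cry1 and Nfil3, which were lower. In the other 2-group comparisons edgeR called 1 clock gene for HFD without Pio in WT mice (Hlf, higher) and 1 for HFD with Pio (Nfil3, higher). The clock sum was 585 to 1631 CPM in WT HFD and 827 to 1014 CPM in WT HFD-Pio mice. Among KO mice it was 639 to 938 CPM in controls and 563 to 1558 CPM with Pio, with mouse 13 the highest. It was 500 to 752 CPM in KO HFD and 570 to 825 CPM in KO HFD-Pio mice. The Pio effect on the control diet differed between genotypes for 4 clock genes, KO minus WT, by 2.07 on the log2 scale for Arntl, 3.23 for Npas2, 1.84 for Cry1 and -2.62 for Ciart (3 higher and 1 lower, and 3 and 4 without mouse 13). The summed level of 8 pericentral hepatocyte markers, which mark the zone where Cyp7a1 is known to be expressed, among WT mice was 1763 to 7359 CPM in controls, 7863 to 9611 CPM with Pio, 6671 to 13637 CPM with HFD and 8263 to 11266 CPM with both, and 1 was called higher with Pio on each diet. In KO mice the sum was 6748 to 11565 CPM in control and 1555 to 6312 CPM in Pio mice, with 1 of 8 markers called higher and 3 lower, and 0 called without mouse 13 (3 at an unadjusted p of at most 0.05). It was 5557 to 11611 CPM in KO HFD and 5227 to 10710.1 CPM in KO HFD-Pio mice, and for HFD with Pio 3 of 8 were called higher by edgeR and 4 were called by DESeq2 and by limma, against 0 in edgeR without mouse 13 (5 at an unadjusted p of at most 0.05). The Pio effect on the control diet, KO minus WT, was lower for 3 pericentral markers, with and without mouse 13.

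Of 7 adipocyte markers 2 were tested, and 1 was called higher with Pio in WT mice on each diet, with sums of 12.9 to 17.7 CPM in WT control, 20.4 to 28.3 CPM with Pio, 13.1 to 29.6 CPM with HFD and 23.2 to 28.0 CPM with both. In KO mice 1 was called higher with Pio on the control diet by edgeR, DESeq2 and limma (0 in edgeR without mouse 13, 0 at an unadjusted p of at most 0.05), with sums of 10.3 to 12.2 CPM in control and 11.2 to 46.1 CPM in Pio mice, and the Pio effect was lower for 1 marker on each diet, KO minus WT, with and without mouse 13. Of 5 blood markers 1 was called lower with Pio in WT and 2 higher in KO mice on the control diet (0 in KO mice without mouse 13, 3 at an unadjusted p of at most 0.05), with sums of 302 to 2029 and 402 to 1018 CPM in WT and of 147 to 265 and 197 to 511 CPM in KO mice. Their Pio effect on the control diet, KO minus WT, was higher for 2 (0 without mouse 13, 5 at an unadjusted p of at most 0.05). Of 7 genes listed as markers of intestine, the tissue that makes FGF15, 2 were tested (Fabp2 and Apoa4). Whether their reads in liver RNA came from intestine was not tested. Their list summed to 221 to 1403 CPM in KO control, 233 to 478 CPM in KO Pio, 122 to 204 CPM in KO HFD and 107 to 167 CPM in KO HFD-Pio mice. Apoa4 was called lower in KO mice for HFD without Pio (log2 fold change -2.16, SE 0.45, adjusted p = 0.0255) and with Pio (log2 fold change -1.94, SE 0.45, adjusted p = 0.0314), and without mouse 13 for the first alone. In WT mice the list summed to 201 to 931 CPM in controls, 305 to 439 CPM with Pio, 160.3 to 674 CPM with HFD and 99.97 to 240.5 CPM with both, and for HFD with Pio edgeR called 0 (1 at an unadjusted p of at most 0.05, 1 with DESeq2 and 2 with limma). Of 9 periportal markers, edgeR called 1 for Pio on the control diet in KO mice and 1 for that effect, KO minus WT. It called 0 genes of the hepatocyte, cholangiocyte, macrophage, stellate, endothelial and lymphocyte lists in any comparison. DESeq2 or limma called some genes of each of these but the macrophage and endothelial lists. The 6 lymphocyte genes together summed to at most 8.84 CPM in any mouse, near the filter of 1 CPM, so 0 calls there say little. The part of these lists in the Cyp7a1 differences was not tested.

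Cyp8b1 (ENSMUSG00000050445, chr9:121914356-121916305, minus strand), the 12α-hydroxylase, passed adjustment in none of the edgeR comparisons over all 40 mice, whereas DESeq2 or limma called 4 of the 14. Without Pio, its values with HFD lay above those on the control diet in WT mice. WT control mice had 83.3, 369, 386, 426 and 501 CPM and WT HFD mice 668, 707, 739, 793 and 835 CPM, so that all HFD mice lay above all controls (means 353 ± 159 and 748 ± 66.5). The low control is mouse 832. Its difference for HFD gave log2 fold change 1.08, SE 0.34, adjusted p = 0.101 (exact permutation p = 0.00794), was called by DESeq2 (1.08, adjusted p = 0.0407) and without KO Pio mouse 13 (log2 fold change 1.07, SE 0.32, adjusted p = 0.0367), and without WT control mouse 832 came to 0.83 (adjusted p = 0.341). WT Pio mice had 406, 479, 528, 677 and 698 CPM and WT HFD-Pio mice 428, 553, 628, 687 and 713 CPM, which overlap (means 558 ± 127 and 602 ± 115, log2 fold change 0.11, SE 0.34, adjusted p = 0.928, exact permutation p = 0.556).

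In KO mice Cyp8b1 stood at 173, 229, 251, 266 and 339 CPM in controls and 71.6, 86.2, 162, 210.1 and 228 CPM with Pio, where mouse 13 was the lowest and the groups overlap (log2 fold change -0.73, SE 0.34, adjusted p = 0.152, and without mouse 13 log2 fold change -0.54, SE 0.34, adjusted p = 0.647). KO HFD mice had 115, 389, 429, 444 and 504 CPM, with mouse 9 the lowest (log2 fold change 0.58, SE 0.34, adjusted p = 1, against 0.78, adjusted p = 0.0139 with limma), and KO HFD-Pio mice 218, 279, 301, 309 and 489 CPM. Of the HFD-Pio mice 4 of 5 lay above every Pio mouse (log2 fold change 1.08, SE 0.34, adjusted p = 0.0538, exact permutation p = 0.0159, and without mouse 13 log2 fold change 0.89, SE 0.34, adjusted p = 0.604). This comparison was called with RLE factors (1.07, adjusted p = 0.0493), by DESeq2 (1.07, adjusted p = 0.0296), by limma (0.81, adjusted p = 0.0188) and in 5 of the 40 fits without 1 mouse, those without WT control mouse 832, KO HFD mouse 9 or KO Pio mouse 11, 14 or 15. The Pio effect on the control diet, KO minus WT, was -1.39 on the log2 scale (SE 0.48, adjusted p = 0.0604) with edgeR, -1.40, adjusted p = 0.0333 with DESeq2 and, without mouse 13, -1.21 on the log2 scale (SE 0.46, adjusted p = 0.12).

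Cyp27a1 (ENSMUSG00000026170, chr1:74713574-74737892, plus strand), the mitochondrial sterol 27-hydroxylase, kept group means between 447 and 598 CPM over the 8 groups, with an unadjusted p of 0.179 or more in all 14 edgeR comparisons, and of 0.219 or more without mouse 13. Its lowest value was 197 CPM in WT control mouse 832 and its highest 954 CPM in KO Pio mouse 13. Cyp7b1 (ENSMUSG00000039519, chr3:18071950-18243338, minus strand), the oxysterol 7α-hydroxylase, had means among WT mice of 107 ± 54.3 CPM in controls, 66.0 ± 26.1 CPM with Pio, 160.1 ± 63.0 CPM with HFD and 119 ± 50.9 CPM with both. Among WT mice it gave log2 fold change -0.70, SE 0.36, adjusted p = 0.307 for Pio on the control diet, log2 fold change 0.58, SE 0.36, adjusted p = 0.519 for HFD without Pio and log2 fold change 0.85, SE 0.36, adjusted p = 0.252 for HFD with Pio, none called by edgeR. Limma called the first (-0.91, adjusted p = 0.0464). Gm23686 overlaps the Cyp7b1 locus, and whether counting used strand is not given in the sources used here.

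KO control mice had 120.2, 304, 357, 395 and 413 CPM of Cyp7b1, KO Pio mice 79.1, 140.3, 161, 210.2 and 239, KO HFD mice 336, 382, 420.3, 511 and 756 and KO HFD-Pio mice 245, 270.0, 365, 405 and 460.1 CPM. Every KO HFD-Pio mouse lay above every KO Pio mouse, and the difference did not pass adjustment in edgeR (log2 fold change 1.07, SE 0.36, adjusted p = 0.0652, exact permutation p = 0.00794, and without mouse 13 log2 fold change 1.06, SE 0.39, adjusted p = 0.568). It was called by DESeq2 (1.06, adjusted p = 0.0417) and in the edgeR fits without KO Pio mouse 11 (1.23, adjusted p = 0.0283) or 14 (1.17, adjusted p = 0.0375). KO control and Pio mice overlap (log2 fold change -0.94, SE 0.36, adjusted p = 0.086, and without mouse 13 log2 fold change -0.91, SE 0.39, adjusted p = 0.368), as 1 control, mouse 3, stood at 120.2 CPM, and without KO Pio mouse 11 the difference was called (-1.10, adjusted p = 0.0436). Pio on HFD gave log2 fold change -0.46, SE 0.36, adjusted p = 1. Mouse 3 was also the control with the most Cyp7a1.

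Nr0b2 (ENSMUSG00000037583, chr4:133553376-133556536, plus strand), which encodes the repressor SHP, rose with Pio in KO mice on the control diet, where Cyp7a1 fell, and both calls rest in part on mouse 13. KO control mice had 34.5, 37.8, 40.8, 48.6 and 67.6 CPM and KO Pio mice 64.4, 68.6, 78.2, 80.5 and 190.1 CPM, the highest being mouse 13 (means 45.8 ± 13.2 and 96.4 ± 52.8, and 72.9 ± 7.68 without mouse 13, n = 4). Of the 5 Pio mice 4 lay above every control, and the lowest lay below control mouse 5 (log2 fold change 1.07, SE 0.33, adjusted p = 0.0405, exact permutation p = 0.0159). The call was lost without mouse 13 (log2 fold change 0.69, SE 0.31, adjusted p = 0.416, exact permutation p = 0.0238 for 4 mice against 5) and without KO control mouse 1, 2, 3 or 4 (adjusted p 0.0773 to 0.0903). With KO mice fitted alone the adjusted p was 0.151. Over all 40 mice the rise was also called by DESeq2 (1.09, adjusted p = 0.0187) and limma (0.82, adjusted p = 0.0169). The Pio effect differed by 1.36 on the log2 scale (SE 0.47, adjusted p = 0.0615) between genotypes, KO minus WT, and without mouse 13 by 0.97 on the log2 scale (SE 0.43, adjusted p = 0.196). It was called in 8 of the 40 fits without 1 mouse, by DESeq2 (1.38, adjusted p = 0.0381) and by limma (1.35, adjusted p = 0.00628). Between HFD and control diet in KO mice it differed by -0.99 on the log2 scale (SE 0.47, adjusted p = 0.405), and without mouse 13 by -0.61 on the log2 scale (SE 0.43, adjusted p = 0.999).

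KO HFD mice had 21.9, 51.7, 54.9, 58.3 and 66.5 CPM of Nr0b2, with mouse 9 the lowest, and KO HFD-Pio mice 24.7, 54.8, 55.6, 65.5 and 67.8 CPM (log2 fold change -0.84, SE 0.33, adjusted p = 0.108 for HFD with Pio, and without mouse 13 log2 fold change -0.45, SE 0.31, adjusted p = 1). In WT mice the groups all overlap, at 23.0, 58.3, 62.4, 78.9 and 84.4 CPM in controls, 30.4, 36.3, 40.9, 66.9 and 75.9 with Pio, 47.1, 82.7, 90.2, 100.1 and 107 with HFD and 68.7, 70.9, 82.4, 85.0 and 129 CPM with both. HFD with Pio gave log2 fold change 0.80, SE 0.33, adjusted p = 0.245 with edgeR, and was called by limma (1.00, adjusted p = 0.00314). The HFD effect with Pio, KO minus WT, was -1.64 on the log2 scale (SE 0.47, adjusted p = 0.13), without mouse 13 -1.24 on the log2 scale (SE 0.43, adjusted p = 0.291), and was called by DESeq2 (-1.67, adjusted p = 0.0496) and limma (-1.48, adjusted p = 0.00563).

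Nr1h4 (ENSMUSG00000047638, chr10:89454234-89533585, minus strand), the gene of FXR, differed between genotypes in its response to Pio. WT control mice had 39.9, 63.3, 63.5, 72.7 and 77.1 CPM and WT Pio mice 72.5, 74.2, 81.5, 86.7 and 93.0 CPM, with 3 of 5 above every control. KO control mice had 92.0, 104, 109, 126 and 128 CPM and KO Pio mice 18.7, 59.2, 85.9, 88.2 and 95.5 CPM, with 4 of 5 below every control and mouse 13 far below (log2 fold change -0.69, SE 0.24, adjusted p = 0.0597, exact permutation p = 0.0159, and without mouse 13 log2 fold change -0.43, SE 0.17, adjusted p = 0.304). The KO difference was called by DESeq2 (-0.69, adjusted p = 0.0408), by limma (-0.37, adjusted p = 0.0273) and by edgeR without KO Pio mouse 11, 14 or 15 (-0.83 to -0.77, adjusted p 0.0236 to 0.0328). The Pio effect differed by -1.05 on the log2 scale (SE 0.34, adjusted p = 0.0471), KO minus WT, and without mouse 13 by -0.81 on the log2 scale (SE 0.23, adjusted p = 0.0334).

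That difference lies near the threshold. It was lost in 28 of 40 fits without 1 mouse (adjusted p at most 0.0834) and called in the 12 without WT HFD mouse 827, 828 or 829, WT control mouse 835, WT HFD-Pio mouse 840, KO control mouse 5, KO HFD mouse 9, KO Pio mouse 11, 13, 14 or 15, or KO HFD-Pio mouse 16. It stayed negative in all 40. DESeq2 (-1.06, adjusted p = 0.0245) and limma (-0.60, adjusted p = 0.0129) also called it. WT HFD mice had 72.0, 99.7, 103, 107 and 119 CPM, 4 of 5 above every control (log2 fold change 0.66, SE 0.24, adjusted p = 0.166, and without mouse 13 log2 fold change 0.65, SE 0.16, adjusted p = 0.0124, with limma 0.66, adjusted p = 0.00653), and WT HFD-Pio mice 66.9, 87.9, 93.4, 102 and 107 CPM. KO HFD mice ranged over 71.4 to 125 CPM and KO HFD-Pio mice over 80.7 to 119.5 CPM (log2 fold change 0.59, SE 0.24, adjusted p = 0.115 for HFD with Pio, and without mouse 13 log2 fold change 0.34, SE 0.17, adjusted p = 0.944). The call appeared without KO Pio mouse 15 (0.73, adjusted p = 0.0461).

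Fgfr4 (ENSMUSG00000005320, chr13:55152640-55168759, plus strand), the hepatocyte receptor of FGF15, had lower values with Pio in WT livers on both diets, differences that edgeR called without KO Pio mouse 13 and not with it. Limma called both (-0.32, adjusted p = 0.0224 on the control diet and -0.35, adjusted p = 0.0375 on HFD). WT control mice had 59.4, 62.6, 63.4, 65.0 and 84.7 CPM and WT Pio mice 45.8, 46.3, 53.0, 54.9 and 60.02 CPM, with 4 of 5 below every control (log2 fold change -0.37, adjusted p = 0.498, exact permutation p = 0.0159, and without mouse 13 log2 fold change -0.35, SE 0.11, adjusted p = 0.0258). WT HFD mice had 68.1, 72.8, 74.2, 83.3 and 99.1 CPM and WT HFD-Pio mice 53.5, 56.1, 58.6, 61.9 and 66.2 CPM, each below every HFD mouse (log2 fold change -0.42, adjusted p = 0.436, exact permutation p = 0.00794, and without mouse 13 log2 fold change -0.41, SE 0.11, adjusted p = 0.0172). Mouse 13 is in neither group, and enters through the spread that the fit shares over all groups: the SE for Pio on the control diet was 0.26 with and 0.11 without it.

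In KO mice Fgfr4 stood at 46.6, 47.9, 50.1, 51.4 and 53.2 CPM in controls and at 35.0, 35.0, 40.6, 50.6 and 180.0 CPM with Pio, where the value of mouse 13 lay far above the other 4. With mouse 13 the difference was log2 fold change 0.45, SE 0.26, adjusted p = 0.249, and without it log2 fold change -0.28, SE 0.12, adjusted p = 0.341, the opposite sign. KO HFD mice ranged over 43.5 to 53.8 CPM and KO HFD-Pio mice over 46.1 to 61.9 CPM, and HFD with Pio likewise turned from log2 fold change -0.40, SE 0.26, adjusted p = 0.35 to log2 fold change 0.35, SE 0.12, adjusted p = 0.441. Limma, which weights the samples, gave -0.38, adjusted p = 0.00542 for Pio on the control diet and 0.42, adjusted p = 0.00271 for HFD with Pio. No direction is given for Fgfr4 in the KO Pio group.

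Klb (ENSMUSG00000029195, chr5:65348314-65384007, plus strand), the coreceptor of Fgfr4, had group means from 32.6 CPM in WT HFD to 43.3 CPM in KO control mice. Its groups overlapped in all 8 comparisons of 2 groups. In WT mice Pio on HFD gave log2 fold change 0.39, SE 0.25, adjusted p = 0.469 and HFD with Pio log2 fold change 0.20, SE 0.25, adjusted p = 0.787. In KO mice Pio on HFD gave log2 fold change 0.26, SE 0.25, adjusted p = 1, and HFD with Pio log2 fold change 0.25, SE 0.25, adjusted p = 0.558 with and log2 fold change 0.04, SE 0.23, adjusted p = 1 without mouse 13. The lowest Klb values were found in WT control mouse 832 (18.1 CPM), KO HFD mouse 9 (15.0) and KO Pio mouse 13 (15.3 CPM). Mouse 832 had the lowest correlation with the other mice of its genotype among WT mice, and mice 13 and 9 the lowest among KO mice.

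Abcb11 (ENSMUSG00000027048, chr2:69238282-69342616, minus strand), the bile salt export pump, had lower values with HFD without Pio in WT livers. WT control mice had 465, 619, 652, 653 and 787 CPM and WT HFD mice 352, 410.3, 478, 484 and 521 CPM, with 2 of 5 below every control (log2 fold change -0.50, SE 0.26, adjusted p = 0.399, exact permutation p = 0.0317). Without KO Pio mouse 13 this difference was called (log2 fold change -0.51, SE 0.14, adjusted p = 0.0197), and limma with sample weights, the test of the study's methods, called it as well (-0.62, adjusted p = 0.00702). Limma also called the Pio effect on the control diet (-0.42, adjusted p = 0.0121, with log2 fold change -0.29, SE 0.26, adjusted p = 0.617 in edgeR). WT Pio and HFD-Pio mice lay at 421 to 657 and 467 to 556 CPM (log2 fold change 0.01, SE 0.26, adjusted p = 0.992 for HFD with Pio). The effect of Pio on HFD minus that on the control diet was called by limma in WT mice (0.62, adjusted p = 0.0188). With edgeR it was 0.51 on the log2 scale (SE 0.36, adjusted p = 0.604). KO control mice had 561, 608, 650.2, 819 and 825 CPM and KO Pio mice 124, 632, 799, 859 and 1026 CPM, where mouse 13 was the lowest of all 40 mice and the other 4 averaged 829 ± 162 CPM (log2 fold change -0.01, SE 0.26, adjusted p = 0.984, and without mouse 13 log2 fold change 0.28, SE 0.14, adjusted p = 0.502). Limma called the Pio effect on the control diet KO minus WT (0.67, adjusted p = 0.0045, with 0.28 on the log2 scale (SE 0.36, adjusted p = 0.645) in edgeR and 0.56 on the log2 scale (SE 0.20, adjusted p = 0.09) without mouse 13). KO HFD and HFD-Pio mice lay at 550.1 to 671 and 644 to 719 CPM, with coefficients of variation of 7.89% and 4.45%, the latter the smallest of the 80 sets of 1 member in 1 group. Gm13613 and Gm13614 overlap the Abcb11 locus.

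Slc10a1 (ENSMUSG00000021135, chr12:80953183-80968705, minus strand), the uptake carrier NTCP, was higher in every WT Pio mouse than in any WT control. WT control mice had 165, 763, 781, 868 and 901 CPM, the lowest being mouse 832, and WT Pio mice 967, 1089.5, 1117, 1144 and 1348 CPM (log2 fold change 0.70, SE 0.36, adjusted p = 0.304, exact permutation p = 0.00794). Without mouse 832 the log2 fold change was 0.45 (adjusted p = 0.539). WT HFD mice had 692, 714, 892, 1064 and 1587 CPM and WT HFD-Pio mice 696, 805, 870.1, 878 and 949 CPM, all below every WT Pio mouse (log2 fold change -0.43, SE 0.36, adjusted p = 0.64 for HFD with Pio, exact permutation p = 0.00794). Neither difference passed adjustment in edgeR, and limma called the first (0.62, adjusted p = 0.0333). In KO mice levels were 464, 666, 714, 891 and 1016 CPM in controls and 111, 293, 847, 856 and 863 CPM with Pio, the lowest being mice 13 and 12 (log2 fold change -0.34, SE 0.36, adjusted p = 0.557, and without mouse 13 log2 fold change -0.05, SE 0.31, adjusted p = 0.988). KO HFD mice ranged over 327 to 673 CPM (log2 fold change -0.36, SE 0.36, adjusted p = 1) and KO HFD-Pio mice over 489 to 672 CPM (log2 fold change 0.02, SE 0.36, adjusted p = 0.978 for HFD with Pio, and without mouse 13 log2 fold change -0.25, SE 0.31, adjusted p = 1).

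Whether members varied together from mouse to mouse was asked for 4 pairs in each genotype (8 relations, 20 mice each), with log2 CPM taken relative to the mean of each group and 100000 permutations within groups. None passed Benjamini-Hochberg adjustment, with adjusted permutation p from 0.364 to 0.832 for Pearson's r and from 0.631 to 0.880 for Spearman's rho. The closest was Cyp7a1 with Cyp8b1 in KO mice (r = 0.51, permutation p = 0.0589, rho = 0.29, permutation p = 0.247), where r fell to 0.0507 without the 2 mice farthest from the median of Cyp7a1, KO HFD mouse 9 and KO control mouse 3. The relation rests on those mice. Cyp7a1 with Nr0b2 gave r = 0.056 (permutation p = 0.832) in KO mice, 0.27 without KO Pio mouse 13, and 0.20 (permutation p = 0.421) in WT mice. For Nr0b2 with Abcb11, r in KO mice was -0.47 (permutation p = 0.17, rho = -0.31, permutation p = 0.187), -0.82 without the 2 mice farthest in Nr0b2, KO HFD mouse 9 and KO HFD-Pio mouse 20, and 0.20 without KO Pio mouse 13.

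Over all mice of a genotype, with groups included, the gene most like Cyp7a1 was Mmab, which encodes an enzyme of cobalamin metabolism (Spearman's rho 0.71 over 20 WT and 0.69 over 20 KO mice). It was followed by Ddx46, Gm26684, Nmi and Gm15318, with a smaller rho of the genotypes from 0.64 to 0.66. Cyp8b1 was most like BC024139 (0.80 and 0.86), then Ces1g, Amy1, Nr1i3 and Car3 (smaller rho 0.71 to 0.75). Nr1i3 encodes CAR, a nuclear receptor of xenobiotic and bile acid metabolism. For Nr0b2 they were Thra, a thyroid hormone receptor (0.63 and 0.85), Poll, Tjp3, B3gnt8 and Xrcc1 (smaller rho 0.57 to 0.61). These are the highest of 12941 genes by the smaller of both values and are a description, since the mice share their groups and libraries. Among the members themselves, Cyp7a1 and Cyp8b1 reached 0.59 in WT and 0.75 in KO mice, and Cyp8b1 and Nr1h4 0.57 and 0.70.

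Further genes of bile acid metabolism were read from 3 lists of 15 synthesis genes (14 tested), 15 transport genes (13 tested) and 16 regulators (14 tested). For Pio on the control diet in WT mice 0 synthesis genes were called (3 at an unadjusted p of at most 0.05, 2 with DESeq2 and 5 with limma), 1 transport gene rose and 0 regulators were called (3 at an unadjusted p of at most 0.05, 0 with DESeq2 and 2 with limma). The transport gene was Abcc4, MRP4, a basolateral exporter of bile acid conjugates. It stood at 1.58, 2.14, 2.16, 2.18 and 6.44 CPM in WT control and 2.66, 5.11, 5.74, 10.7 and 15.9 CPM in WT Pio mice, which overlap (log2 fold change 1.45, SE 0.35, adjusted p = 0.0137). On HFD it was 1.14, 1.15, 1.16, 1.38 and 1.54 CPM without and 2.61, 3.18, 4.33, 5.15 and 6.08 CPM with Pio, with no overlap (log2 fold change 1.75, SE 0.37, adjusted p = 0.0126). Without KO Pio mouse 13 both Abcc4 differences remained called (log2 fold change 1.46, SE 0.36, adjusted p = 0.00514 on the control diet and log2 fold change 1.77, SE 0.39, adjusted p = 0.00455 on HFD). The list medians for Pio on the control diet in WT mice were 0.07, 0.11 and 0.06 on the log2 scale, beside -0.02 over all genes tested. On HFD in WT mice Fgfr2, an FGF receptor, was the regulator called for Pio (log2 fold change 0.46, SE 0.12, adjusted p = 0.0491), with list medians of 0.06, 0.32 and -0.16 beside -0.02, and 0 synthesis genes were called (2 at an unadjusted p of at most 0.05, 0 with DESeq2 and 1 with limma).

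For HFD without Pio in WT mice 1 synthesis gene rose, 0 transport genes were called (5 at an unadjusted p of at most 0.05, 1 with DESeq2 and 2 with limma), and 1 regulator rose and 1 fell. Slc27a2, a very long-chain acyl-CoA synthetase that can activate bile acids, stood at 540.2, 754, 873, 893 and 927 CPM in control and 1199, 1220.5, 1446, 1489.8 and 1679.7 CPM in HFD mice, all higher (log2 fold change 0.82, SE 0.17, adjusted p = 0.0102). Nr1i3, or CAR, stood at 18.0, 27.4, 50.7, 66.8 and 73.5 CPM in control and 93.1, 149, 165, 247 and 257 CPM in HFD mice, again all higher (log2 fold change 1.95, SE 0.39, adjusted p = 0.00604). Fgfr2 fell (log2 fold change -0.58, SE 0.12, adjusted p = 0.00844). The list medians were 0.32, -0.11 and 0.21 beside 0.00 over all genes. With Pio, HFD called none of the 3 lists' genes in WT mice (4, 3 and 2 at an unadjusted p of at most 0.05, 0, 1 and 1 with DESeq2, and 7, 3 and 5 with limma).

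In KO mice Pio on the control diet called 0 synthesis genes (4 at an unadjusted p of at most 0.05, 1 with DESeq2 and 1 with limma) and 0 transport genes (3 at an unadjusted p of at most 0.05, 1 with DESeq2 and 0 with limma). Of the regulators 3 rose and 1 fell, and all 4 calls were lost without mouse 13. Foxa2, a hepatic forkhead factor, stood at 20.1, 20.7, 22.9, 24.6 and 27.2 CPM in controls and 26.6, 27.9, 29.5, 32.4 and 345 CPM with Pio, so that the size of the rise rested on mouse 13 (log2 fold change 2.00, SE 0.53, adjusted p = 0.0232, and without it log2 fold change 0.36, SE 0.36, adjusted p = 0.852). Nr1h2, which encodes LXRβ, gave log2 fold change 1.28, SE 0.36, adjusted p = 0.0276 with and log2 fold change -0.01, SE 0.11, adjusted p = 0.993 without mouse 13, and Fgfr3 log2 fold change 0.99, SE 0.29, adjusted p = 0.031 with and log2 fold change 0.38, SE 0.21, adjusted p = 0.558 without. Nr1i3 stood at 63.5, 67.2, 84.2, 165 and 175 CPM in controls and 23.6, 39.5, 42.4, 61.7 and 79.0 CPM with Pio (log2 fold change -1.17, SE 0.39, adjusted p = 0.0486, and without mouse 13 log2 fold change -1.08, SE 0.42, adjusted p = 0.276). For HFD with Pio, Cyp46a1 and Nr1h2 fell (log2 fold change -2.08, SE 0.58, adjusted p = 0.041 and log2 fold change -1.35, SE 0.36, adjusted p = 0.0399), and without mouse 13 neither was called (log2 fold change -0.71, SE 0.48, adjusted p = 1 and log2 fold change -0.04, SE 0.11, adjusted p = 1). Cyp46a1 encodes cholesterol 24-hydroxylase. Pio on HFD and HFD without Pio called none of the 3 lists' genes in KO mice (0, 0 and 1 and then 0, 1 and 1 at an unadjusted p of at most 0.05, 0 with DESeq2 in each, and 0, 0 and 0 and then 1, 1 and 1 with limma).

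Between genotypes, the Pio effect on the control diet differed for Hsd17b4, the peroxisomal enzyme that shortens the bile acid side chain (log2 fold change -0.94, SE 0.24, adjusted p = 0.0172, KO minus WT), for Slco1b2, a hepatic uptake carrier (log2 fold change -1.50, SE 0.44, adjusted p = 0.0319), for Nr1i3 (log2 fold change -2.08, SE 0.54, adjusted p = 0.0191) and for Fgfr3 (log2 fold change 1.52, SE 0.41, adjusted p = 0.0206). Without mouse 13 they gave -0.79 (adjusted p = 0.0209), -1.24 (0.0295), -2.01 (0.0306) and 0.90 (0.0568). Slco1b2 stood at 186, 307, 335, 419.7 and 464 CPM in WT control and 432, 615, 632, 650.3 and 693 in WT Pio mice, and at 849, 1197, 1199, 1379 and 1549.7 in KO control and 174, 352, 1029, 1110.0 and 1190.0 CPM in KO Pio mice. Its lowest values in the KO Pio group belong to mice 13 and 12.

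**Figure D4:**
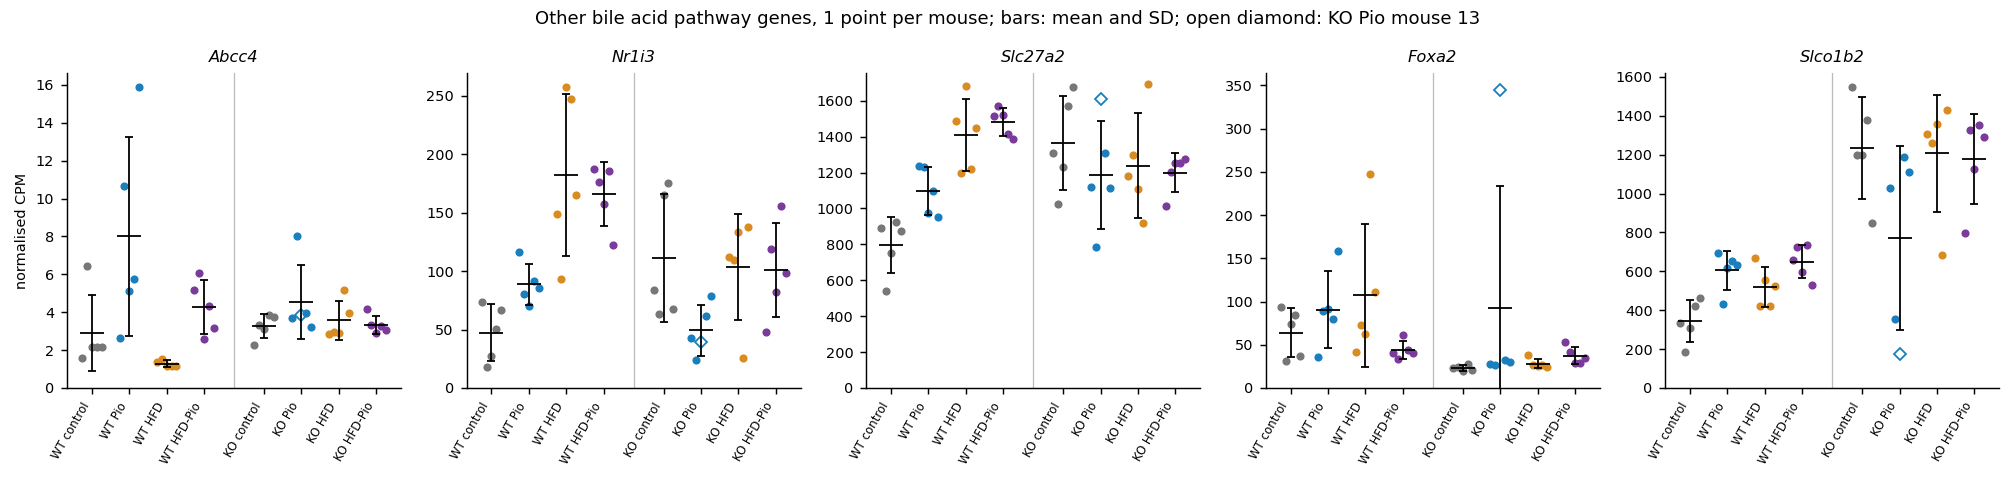
Normalised read counts (CPM, linear vertical axes, a scale for each gene) of Abcc4, Nr1i3, Slc27a2, Foxa2 and Slco1b2 in each mouse, chosen from the called pathway genes after their values were seen. Points are mice, horizontal bars group means, whiskers SD (5 mice a group) and the open diamond KO Pio mouse 13. Nr1i3 and Slc27a2 were higher in all WT HFD than in all WT control mice, and Foxa2 in KO Pio mice rests on mouse 13 at 345 CPM.

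KO Pio mouse 13 stood apart well beyond these genes. Its summed transport list was 1166 CPM, against 2153 to 4472 CPM in the other 19 KO mice, and its pericentral sum 1555 CPM against 1742 to 11611. The adipocyte list came to 46.1 CPM against 10.3 to 17.7 CPM, the stellate list to 627 against 355 to 514, and the clock list to 1558 against 500 to 938 CPM. Macrophage markers came to 235 CPM against 259 to 859, endothelial markers to 185 against 224 to 341 and lymphocyte markers to 0.856 against 2.23 to 6.95 CPM, each below the range of the other KO mice. Cholangiocyte (81.4 CPM), blood (280.1) and intestinal markers (478 CPM) lay within the ranges of the others. Periportal markers came to 4395 CPM, below 6611 to 9909 CPM. The part of these differences in the KO Pio results was not tested, other than by leaving the mouse out.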

How the data were processed

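Poly-A RNA of 40 mouse livers was sequenced. The authors aligned reads with STAR 2.0.4b to GRCm38 (Ensembl 76) and used featureCounts 1.4.5 of Subread to count, for each gene, the reads that aligned to 1 place without ambiguity, and deposited these raw counts in a table for each genotype. Strandedness is not given in the sources used here. Identical repeated lines (598 in the KO and 574 in the WT table) were dropped, 96 genes listed only for WT were left out, and 355 rRNA genes were removed. All columns matched a sample (0 unmatched).

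Genes that reached 1 CPM in 5 mice or more (12942) were fitted with edgeR 4.0.16 (R 4.3.3, TMM factors, robust quasi-likelihood, 8 groups, Benjamini-Hochberg adjustment, threshold 0.05). DESeq2 1.42.0 and limma 3.58.1 with sample weights, the test of the study's methods, were alternatives. The scripts were tested on simulated counts. Exact two-sided permutation tests on mean log2 CPM used 5 mice against 5 or 4 (smallest p 0.00794). Replicates are separate mice. Fold changes were printed for a member where its unadjusted p was at most 0.05 or its absolute log2 fold change at least 1. The lowest and highest of the others in a comparison were added, as were differences between effects where an effect or the difference was called. Some values outside these rules were also printed, among them ones that another fit called, and not every value of that kind is given. Of each pathway list at most 4 called genes were named in each comparison. The members and lists were chosen with earlier results of these data known. Promoters come from RefSeq (GRCm38.p6). Python 3.11.15, scipy 1.17.1 and matplotlib 3.10.9 were used.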

Additional observations from a re-analysis of the deposited data

Results flagged for a closer look

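In 16 of the 80 sets of 1 gene in 1 group of 5 mice, the highest or lowest mouse stood off from the nearest other. The gap was more than 0.71 of the range of the group (Dixon's 95% critical value). Chance gives about 1 in 20 for independent normal values. The values here are CPM and the sets share mice, so that rate need not hold. WT control mouse 833 had 18.8 CPM of Cyp7a1. WT control mouse 832 had 197 CPM of Cyp27a1, 18.1 CPM of Klb and 165 CPM of Slc10a1. KO HFD mouse 9 had 381 CPM of Cyp27a1, 15.0 CPM of Klb and 327 CPM of Slc10a1. KO HFD-Pio mouse 16 had 394 CPM of Cyp27a1. WT HFD mouse 826 had 271 CPM of Cyp7b1. WT HFD-Pio mouse 836 had 129 CPM of Nr0b2. KO Pio mouse 13 had 190.1 CPM of Nr0b2 and 180.0 CPM of Fgfr4. WT control mouse 831 had 84.7 CPM of Fgfr4. WT Pio mouse 841 had 48.1 CPM of Klb. KO control mouse 5 had 31.6 CPM of Klb. KO HFD-Pio mouse 20 had 644 CPM of Abcb11. WT control mouse 832 and KO HFD mouse 9 account for 3 each and KO Pio mouse 13 for 2.

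Effects differed between groups by an interaction test in 4 cases. For Cyp7a1 the Pio effect was -3.09 on the log2 scale (SE 0.58, adjusted p = 0.031) on HFD minus the control diet in WT mice, and -3.77 on the log2 scale (SE 0.58, adjusted p = 0.000521) in KO minus WT mice on the control diet. The HFD effect with Pio on Cyp7a1 differed by 3.08 on the log2 scale (SE 0.57, adjusted p = 0.0295), KO minus WT. The Pio effect on Nr1h4 on the control diet differed by -1.05 on the log2 scale (SE 0.34, adjusted p = 0.0471), KO minus WT. Genotype and table cannot be told apart in the last 3, the calls of the first and the last 2 are lost without some single mice, and the cause was not tested.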

How the results depend on the processing

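No paired analysis was possible because no mouse number is shared between groups. The settings tried were edgeR with RLE factors, DESeq2, limma with sample weights, no filter on low counts, rRNA genes kept, each genotype fitted alone (comparisons within a genotype only) and leaving out each of the 40 mice. Cyp7a1 kept its call for Pio on the control diet and for HFD without Pio in WT mice, and for the difference of the Pio effect between genotypes on the control diet, in all fits without 1 mouse. The number of members called moved as follows. Only the larger moves of the first 6 settings are listed. Smaller ones are left out, such as 2 to 3 with DESeq2 for Pio on the control diet in KO mice. Pio on the control diet in WT mice went from 1 to 5 with limma, and 1 to 2 without 1 mouse. Pio on HFD in WT mice went from 0 to 1 with limma, and 0 to 1 without 1 mouse. HFD without Pio in WT mice went from 1 to 2 with DESeq2, 3 with limma and 2 with the genotype fitted alone, and 1 to 4 without 1 mouse. HFD with Pio in WT mice went from 0 to 1 with limma. Pio on the control diet in KO mice went from 2 to 4 with limma, 1 with no filter and 0 with the genotype fitted alone, and 0 to 4 without 1 mouse. HFD without Pio in KO mice went from 0 to 2 with limma. HFD with Pio in KO mice went from 1 to 2 with RLE factors, 3 with DESeq2, 3 with limma and 0 with the genotype fitted alone, and 0 to 3 without 1 mouse. Pio by diet in WT mice went from 1 to 2 with limma and 0 with no filter, and 0 to 1 without 1 mouse. Pio on the control diet between genotypes went from 2 to 4 with DESeq2, 4 with limma and 1 with no filter, and 1 to 4 without 1 mouse. HFD without Pio between genotypes went from 0 to 1 with limma. HFD with Pio between genotypes went from 1 to 2 with DESeq2, 2 with limma and 0 with no filter, and 0 to 2 without 1 mouse.

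The number of all genes called moved as follows, with the lowest and highest value over the 40 fits without 1 mouse. Smaller moves are again left out, such as 1166 to 1427 with DESeq2 for Pio on the control diet in KO mice. Pio on the control diet in WT mice went from 506 to 813 with DESeq2, 3095 with limma, 315 with no filter and 936 with the genotype fitted alone, and 203 (without WT Pio 845) to 2007 (without KO Pio 13). Pio on HFD in WT mice went from 140 to 360 with DESeq2, 1087 with limma and 70 with no filter, and 39 (without WT HFD-Pio 837) to 1501 (without KO Pio 13). HFD without Pio in WT mice went from 170 to 376 with DESeq2, 327 with limma, 101 with no filter and 345 with the genotype fitted alone, and 58 (without WT HFD 828) to 845 (without KO Pio 13). HFD with Pio in WT mice went from 158 to 380 with DESeq2, 2937 with limma and 86 with no filter, and 47 (without WT Pio 845) to 1119 (without KO Pio 13). Pio on the control diet in KO mice went from 1166 to 0 with the genotype fitted alone, and 66 (without KO Pio 13) to 2318 (without KO Pio 14). Pio on HFD in KO mice went from 2 to 8 with DESeq2, 0 with limma, 0 with no filter and 0 with the genotype fitted alone, and 0 (without WT HFD 826) to 5 (without KO HFD 6). HFD without Pio in KO mice went from 24 to 53 with DESeq2, 542 with limma, 15 with no filter and 0 with the genotype fitted alone, and 2 (without KO control 4) to 50 (without KO Pio 13). HFD with Pio in KO mice went from 642 to 1012 with DESeq2, 309 with limma, 81 with no filter and 0 with the genotype fitted alone, and 2 (without KO HFD-Pio 17) to 2024 (without KO Pio 11). Pio by diet in WT mice went from 10 to 135 with DESeq2, 1378 with limma, 0 with no filter and 1 with the genotype fitted alone, and 0 (without WT HFD 826) to 677 (without KO Pio 13). Pio by diet in KO mice went from 0 to 52 with limma. Pio on the control diet between genotypes went from 1018 to 1998 with limma and 565 with no filter, and 537 (without WT Pio 845) to 1976 (without KO Pio 11). Pio on HFD between genotypes went from 12 to 26 with DESeq2 and 354 with limma, and 8 (without WT HFD-Pio 837) to 21 (without KO Pio 13). HFD without Pio between genotypes went from 8 to 91 with DESeq2, 185 with limma and 4 with no filter, and 1 (without WT HFD 828) to 136 (without KO Pio 13). HFD with Pio between genotypes went from 2 to 108 with DESeq2, 975 with limma and 1 with no filter, and 1 (without WT HFD-Pio 836) to 391 (without KO Pio 11).

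Among the fold changes that met the rule for printing, directions turned in KO mice for Fgfr4, Slc10a1 and Klb, none called in the edgeR fit. Fgfr4 with Pio on the control diet gave -0.38 with limma and -0.28 to 0.62 without 1 mouse, and HFD with Pio 0.42 and -0.57 to 0.35, the opposite sign occurring without KO Pio mouse 13. With limma, Slc10a1 gave 0.026 for Pio on the control diet and Klb -0.019 for HFD with Pio. Fold changes outside that rule turned too. In KO mice Abcb11 with Pio on the control diet went from -0.01 to 0.25 with limma and 0.28 without mouse 13. Cyp27a1 for HFD with Pio went from -0.02 to 0.22 and 0.26. In WT mice Klb with Pio on the control diet went from 0.06 to -0.18 with limma. The cause of these moves was not tested. Depth was no limit for the members, which had 202 or more reads in every mouse.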
